A study of Rattus norvegicus with 18 samples.

Results

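Solute carriers are membrane proteins that move amino acids, sugars, metal ions, nucleotides, lipids, vitamins and inorganic ions across the plasma membrane and across the membranes of organelles. The genes described here are the solute carriers with a measurable transcript in 9 rat testis cell populations. They were chosen by symbol and by signal. A gene was kept when its annotated symbol was Slc with a family number, the letter a and a member number. Its brightest probe set, averaged on the log2 scale, also had to reach a scaled signal of 250 in at least 1 of the 9 libraries. The trimmed mean of every array is 250. That probe set came from array type A, the first of the 2 types used, wherever the gene had one there. A brighter probe set on type B was then passed over. The arrays gave a reading for 271 Slc genes among 13807 genes in all. Of the 271, 155 stayed under 250 in all 9 libraries, 48 of them under 50 throughout, and 116 reached 250. The rule leaves out 3 of the 116, the glucose transporters Slc2a1 and Slc2a3 and the cystine transporter Slc7a11, which leaves 113 genes. Of all genes read, 58.7% reached 250 in a library, against 42.8% of the Slc genes.

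In the testis, Sertoli cells seal the later stages of spermatogenesis behind a barrier of tight junctions, so that germ cells beyond it receive nutrients through carriers of the Sertoli cells and of their own membranes. Sertoli cells use glucose and export lactate, which meiotic germ cells take up and burn in their mitochondria. Zinc, iron, amino acids and choline likewise reach germ cells through carriers, and chloride and bicarbonate exchangers are needed by the sperm that form later.

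The study profiled cells of testes from rats 22 days old, an age at which the tubules hold spermatogonia and spermatocytes; strain and genotype are not given in the labels. Germ cells were collected after 1, 5, 10 and 20 days on STO cells, a mouse embryonic fibroblast line used as a feeder layer, and after 20 days on MSC1 cells, a mouse Sertoli cell line. Germ cells that bound to laminin, a matrix protein to which spermatogonial stem cells attach, were set against those that did not bind; both are labelled as cultured, with no time. Interstitial cells and tubular somatic cells of the same age, for which the labels mention no culture, were the somatic populations. Each of the 9 populations was hybridised once to each of 2 array types, A and B, so 18 arrays hold 1 library per population and type. There are no replicates, and the number of arrays limits the precision of every value: no comparison between populations has a test. Instead a difference was called when the brighter side reached 250 and the fold was at least 3 after raising lower signals to 50; a fold against a side under 50 is a lower bound and is written as at least that fold. The same 100 probe sets on both array types gave the only repeat measure of the same RNA, and their log2 folds differed between types with an SD of 0.245 per array type averaged over all pairs of populations, so that 2 SD is 1.4-fold. This covers array error and not the spread between cultures or animals. None of the 113 genes was read on any of these 100 probe sets, so the 1.4-fold was not measured on the solute carriers themselves.

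Among the 9 libraries, the summed signal of 7 germ cell marker genes was 15253 to 33600 in the 7 germ cell libraries and 893 to 927 in the somatic ones. The summed Sertoli list of 14 genes was 18731 in tubular somatic and 11904 in interstitial cells, against 1963 to 2981 in germ cells, and that of 10 Leydig genes 7501 and 13270, against 1768 to 6042; without Fdx1, which carries most of the sum outside the interstitial library, these were 982, 8595 and 234 to 855. In the tubular library 2 Sertoli genes were under 50, Sox9 and Amh, which define the cell type; in the interstitial library 3 Leydig genes were, among them Insl3 and Nr5a1. Fibroblast and matrix genes, a list of 12, summed to 1363 to 1774 in the laminin-sorted libraries, 2003 to 7502 on feeders, 29473 in interstitial and 11191 in tubular somatic cells. The 3′ to 5′ ratio of Gapdh on array type A was 14.7 to 29.7 in the feeder-grown libraries and 5.63 to 11.2 in the other 4. On type B the ranges overlapped, at 15 to 27.1 and 5.33 to 16.7. What part cell mixture and RNA quality have in the results below was not tested, and in bulk RNA fewer cells of a type and less RNA per cell cannot be told apart.

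The 113 genes covered the substrates unevenly: 25 are members of the mitochondrial carrier family Slc25, 21 carry metal ions, 19 carry amino acids, peptides or related small amines, 14 carry inorganic ions or protons and 7 carry sugars, with smaller groups for lipids, organic ions, nucleotides, vitamins and monocarboxylates. Slc7a6os and Slc4a1ap, the latter encoding kanadaptin, carry the symbol but are not carriers. The threshold itself separates near neighbours. Slc2a8, a hexose transporter, peaked at 259.5 in non-binding cells, Slc41a1, a magnesium carrier, at 264.8 on STO day 1 and Slc38a7, an amino acid transporter, at 265.9 in tubular somatic cells, and these were the 3 closest inside. Just outside were Slc7a5, the light subunit of a large neutral amino acid exchanger, at 244 in laminin-binding cells, Slc39a2 at 243.4 on STO day 5 and Slc38a6 at 238 in interstitial cells. Of the 113 genes, 32 were at 250 or more in all 9 libraries and 24 in a single library. No library was under 50 for 94 of them, and 88 were read on array type A and 25 on type B.

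Between their dimmest and brightest library, 91 of the 113 genes (80.5%) ranged at least 3-fold, with a median range of 4.91-fold; of the 8106 genes of any kind that reached 250, 77.1% did, with a median of 4.82-fold. Those 8106 genes are the background used for calls, overlaps and peaks, since they met the same signal rule. The promoter matches and the fitted trend are set against other totals, given with them. The brightest library was a somatic one for 50 of the 113 genes (44.2%), against 31.9% of the background: 26 peaked in interstitial and 24 in tubular somatic cells. Non-binding germ cells were the dimmest library for 32 genes (28.3%), against 16.4% of the background. The steadiest genes included Slc38a9, an arginine sensor of the lysosome, at 252 in laminin-binding and 225 in non-binding cells, 244, 355, 308 and 341 on STO days 1, 5, 10 and 20, 281 on MSC1, 340.5 in interstitial and 327 in tubular somatic cells. Slc25a3, which brings phosphate into mitochondria, spanned 2479.5 to 4877, and Slc20a1, a sodium phosphate cotransporter of the cell surface, spanned 1473 to 2857. Slc16a1, the lactate and pyruvate transporter MCT1, stayed between 279 on STO day 10 and 711 in interstitial cells.

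A trio of genes was called higher on STO day 20 than on day 1 and lower on MSC1 than on STO, comparisons that share the STO day 20 library. Of these, Slc30a4 and Slc26a8 were also called between laminin-binding and non-binding cells. Other genes, among them Slc13a5 and Slc6a6, were called in more than 1 comparison too. The promoter sequences of the trio are shown here, a choice made after the values were seen. Slc30a4 encodes the zinc efflux transporter ZnT4, Slc26a8 an anion transporter of sperm and their precursors, and Slc16a10 an aromatic amino acid transporter. The sequences come from RefSeq on GRCr8 and lie just upstream of the gene, 250 bases for Slc30a4 and Slc26a8 and 216 for Slc16a10, whose annotated starts differ, 5′ to 3′ on the minus strand, which is the gene's strand in each case: chr3:130228889-130229138 for Slc30a4, chr20:6751185-6751434 for Slc26a8 and chr20:45122393-45122608 for Slc16a10. Capitals mark the core of the metal response element, TGCGCNC or TGCACNC on either strand, to which the zinc-sensing factor Mtf1 binds.
Slc30a4: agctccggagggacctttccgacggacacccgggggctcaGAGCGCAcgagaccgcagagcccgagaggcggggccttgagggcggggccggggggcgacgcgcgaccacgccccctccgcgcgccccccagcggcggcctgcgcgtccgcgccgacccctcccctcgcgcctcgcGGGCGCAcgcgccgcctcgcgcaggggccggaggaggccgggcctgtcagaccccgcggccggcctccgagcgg
Slc26a8: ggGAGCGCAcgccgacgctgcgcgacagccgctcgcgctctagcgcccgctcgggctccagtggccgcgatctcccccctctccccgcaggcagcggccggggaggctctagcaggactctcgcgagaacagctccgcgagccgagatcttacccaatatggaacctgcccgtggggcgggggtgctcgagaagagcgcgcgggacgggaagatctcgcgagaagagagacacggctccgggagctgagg
Slc16a10: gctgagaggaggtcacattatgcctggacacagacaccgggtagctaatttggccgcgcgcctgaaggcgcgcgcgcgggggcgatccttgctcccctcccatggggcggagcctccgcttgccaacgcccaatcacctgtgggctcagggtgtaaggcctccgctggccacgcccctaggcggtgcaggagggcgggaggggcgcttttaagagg
The core matched at 2 places upstream of Slc30a4, at 1 upstream of Slc26a8 and at none upstream of Slc16a10, and the cyclic AMP response element TGACGTCA matched in none of the 3. G and C made up 82.0% of these bases for Slc30a4, 70.8% for Slc26a8 and 67.6% for Slc16a10. Over the 300-base windows of the RefSeq table, the metal core was in 24.2% of all 33469 windows, in 40 of the 99 windows (40.4%) found for 93 of the 113 genes and in 8 of the 14 windows of 12 zinc transporters. The cyclic AMP element was in 1.83% of all windows and in 2 of the 99. The 33469 windows were not chosen by signal or matched for G and C, so these shares are not a test of enrichment. A match describes the letters in a window and is not evidence of binding.

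Most solute carriers, 76 of 113, had overlapping signals in germ and somatic libraries, and 37 did not. In all 7 germ cell libraries the multivitamin transporter Slc5a6 was brighter than in both somatic libraries, and the ADP/ATP exchanger Slc25a4, the calcium-regulated ATP-magnesium carrier Slc25a24, the choline transporter Slc44a1, the sodium-calcium exchanger Slc8a1 and the cationic amino acid exchanger Slc7a6 were dimmer by more than 3-fold between the nearest libraries. Without a minimum gap, the 7 germ cell signals lay above both somatic signals for 16 of the 113 genes and below both for 21. Of the background, 19.9% lay above and 15% below, against 14.2% and 18.6% of the solute carriers. With a gap of 3-fold and 250 or more on every bright library, 1 gene was above and 5 were below, where the background had 1.22% and 2.25%; for the solute carriers these are 0.885% and 4.42%. With a gap past 1.4-fold, the 2 SD of array error, 8 genes were above and 13 below, those at least 3-fold apart included (7.08% and 11.5%, against 10.2% and 8.71% of the background). The other 16 of the 37 do not overlap but lie within array error of doing so: Slc38a2, Slc25a29, Slc41a3, Slc45a4, Slc43a2, Slc2a9, Slc30a2, Slc39a1, Slc22a17, Slc44a2, Slc25a25, Slc2a8, Slc39a4, Slc27a4, Slc39a14 and Slc22a3.

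Slc5a6 (chr6:31039865-31051671 on GRCr8), which takes up biotin, pantothenate and lipoate, had a lowest, median and highest germ cell signal of 1005, 1697 and 1948, against 325 in interstitial and 265 in tubular somatic cells. The nearest libraries were 3.09-fold apart. Its lowest germ cell library was MSC1 day 20 and its highest STO day 20. Slc30a3 lies 35.2 kb away on chromosome 6, encodes the zinc transporter ZnT3 and was also brighter in every germ cell library, at 619, 1243 and 2508 against 263 and 226. Both genes were highest in germ cells, but among the germ cell libraries Slc30a3 was brightest in laminin-binding cells and dimmest on STO day 20.

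Among the mitochondrial carriers, Slc25a4 (chr16:52805521-52809316), the ADP/ATP exchanger of heart and muscle, had germ cell signals of 181, 219.7 and 336 (lowest, median, highest), against 1842 in interstitial and 2194 in tubular somatic cells, with 5.49-fold between the nearest libraries. Slc25a5, the exchanger of most other tissues, read 311, 599 and 1168 in germ cells against 2519 and 2151. Slc25a24 read 365, 661 and 850.2 against 5589 and 3498, 4.11-fold apart. Its relative Slc25a25, with the same substrates, lay the other way within array error, at 362 to 557 in germ cells, 38.8 in interstitial and 286 in tubular somatic cells. In all, 3 of the 25 mitochondrial carriers were above both somatic libraries (Slc25a25, Slc25a29 and Slc25a42), 5 below (Slc25a4, Slc25a5, Slc25a24, Slc25a45 and Slc25a46) and 17 neither, where the background had 19.9% above and 15% below. Slc25a29, which carries basic amino acids, ranged over 113 to 405 in germ cells, against 59.3 and 108.

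No amino acid carrier was above both somatic libraries and 4 of 19 were below, where the background had 19.9% and 15%: Slc7a6, Slc6a8, Slc38a2 and Slc43a2. Slc7a6, which exchanges arginine for neutral amino acids, read 76.4, 189 and 397 in germ cells against 1323 and 1446, with a 3.33-fold gap. The creatine transporter Slc6a8 ranged over 153 to 463 in germ cells and read 904 in interstitial and 1419.8 in tubular somatic cells. The median log2 difference between the germ cell and the somatic libraries was -0.66 over the 19 amino acid carriers, against 0.15 over the background. The sodium-coupled glutamine transporter Slc38a2 came close to overlapping, at 382 to 979.7 in germ cells against 997 and 1138.

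Among ion and lipid carriers, Slc8a1, which expels calcium in exchange for sodium, read 37.9, 77.6 and 107 in germ cells against 369 and 1053, 3.44-fold apart. Slc44a1, the choline transporter that feeds phosphatidylcholine synthesis, read 24.5, 201 and 257 against 2036 and 966, 3.76-fold apart. Its lowest library was the non-binding cells and its highest the interstitial cells. Brighter in germ cells were the sodium-potassium-chloride cotransporter Slc12a2, at 998 to 2061 against 598 and 369.7, and Slc26a8, at 163 to 1119.6 against 62.3 and 57.6. The long-chain fatty acid transporter Slc27a4 ranged over 571 to 2458, against 269 and 433. Sugar carriers lay on both sides. The proton-coupled sugar transporter Slc45a1 read 202 to 676 in germ cells against 98.2 and 107, while the urate and hexose transporter Slc2a9 read 65.6 to 132 against 490.4 and 157. The PQ-loop protein Slc66a3 ranged over 229.7 to 1255 in germ cells and read 3508 and 4011 in the somatic cells.

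Other probe sets, which the choice of genes did not use, were present above 50 for 8 of these 37 genes. Of their 10 other probe sets, 7 had a median on the same side and 3 showed no overlap. Both further probe sets of Slc44a1 and the type B probe set of Slc30a2 were among the latter, while those of Slc6a8, Slc41a2 and Slc43a2 had medians on the opposite side. The germ cell libraries are different conditions and not replicates, and when the laminin-sorted libraries alone stood for germ cells 23 genes lay above (background 29.6%) and 38 below (background 24%) both somatic libraries, which fewer libraries make easier for any gene.

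**Figure D1:**
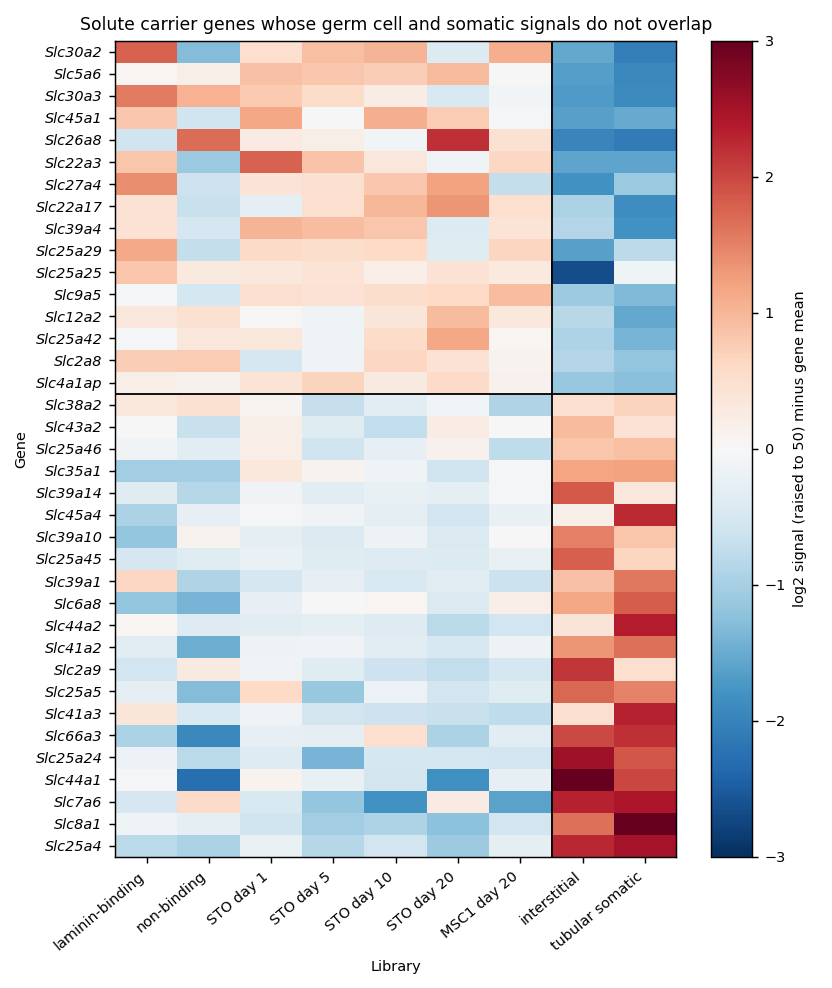
Log2 signal of the 37 solute carrier genes whose 7 germ cell signals lie all above (top 16 rows) or all below (bottom 21 rows) both somatic signals, minus each gene's mean over the 9 libraries (columns), with signals raised to 50. Red is above and blue below the gene's mean: the top rows turn blue and the bottom rows red right of the vertical line, most strongly for Slc25a4, Slc44a1 and Slc8a1.

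Germ cells that bound laminin and those that did not differed most in a citrate transporter and in zinc carriers. The non-binding cells were brighter for Slc13a5, the sodium-coupled citrate transporter of the plasma membrane, for Slc30a4, Slc16a6, Slc26a8 and the acetyl-CoA transporter Slc33a1. The binding cells were brighter for the zinc transporter Slc30a2, for the mitochondrial carriers Slc25a22, Slc25a1 and Slc25a29, and for Slc10a7, the taurine transporter Slc6a6, the fatty acid transporter Slc27a4 and the organic cation transporter Slc22a3. In all, 8 of the 113 genes were called higher in binding cells (7.08%; background 7.71%) and 5 lower (4.42%; background 8.8%). The median log2 fold of binding over non-binding was 0.43 over the 113 genes and 0.15 over the background.

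Slc13a5 (chr10:57364806-57389500) read 107 in laminin-binding and 4562 in non-binding cells, 77.1, 21.2, 114 and 27.4 on STO days 1, 5, 10 and 20, 256 on MSC1, 203 in interstitial and 46 in tubular somatic cells. It was 42.5-fold dimmer in binding than in non-binding cells, and the non-binding library was 17.8-fold above the next, MSC1 day 20. No other gene of the 113 stood so far above its remaining libraries. Slc16a6, which exports ketone bodies, read 142 in laminin-binding and 873 in non-binding cells, 104, 83.3, 70.6 and 39 on STO days 1, 5, 10 and 20, 92.7 on MSC1, 124 in interstitial and 131 in tubular somatic cells. It was 6.16-fold dimmer in binding cells. Both genes peaked in the non-binding library and were at 250 or more in no other, apart from Slc13a5 on MSC1. Another probe set of Slc16a6 gave 107.9 in binding and 146.2 in non-binding cells, a difference near array error, and did not peak there, with 164.5 on STO day 5 and 167.3 on MSC1.

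Slc30a4 (chr3:130206852-130228888) read 38.2 in laminin-binding and 661 in non-binding cells, 98.8, 60.8, 167 and 516 on STO days 1, 5, 10 and 20, 75.7 on MSC1, 250 in interstitial and 161 in tubular somatic cells. It was at least 13.2-fold dimmer in binding cells, where it was under 50. Slc26a8 (chr20:6687207-6751184) read 163 in laminin-binding and 779 in non-binding cells, 289.6, 278, 233 and 1119.6 on STO days 1, 5, 10 and 20, 334 on MSC1, 62.3 in interstitial and 57.6 in tubular somatic cells, and was 4.77-fold dimmer in binding cells. Both genes were bright in non-binding cells and again on STO day 20, and dim in binding cells. Slc33a1, which brings acetyl-CoA into the endoplasmic reticulum, read 128 in binding and 403 in non-binding cells, 3.15-fold dimmer.

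On the side of the binding cells, Slc30a2 (chr5:151843451-151855674), which loads zinc into vesicles, read 704 in laminin-binding and 84.6 in non-binding cells, 294, 389.5, 418 and 155 on STO days 1, 5, 10 and 20, 442 on MSC1, 70.9 in interstitial and 35.5 in tubular somatic cells. It was 8.32-fold brighter in binding cells. Its probe set on array type B gave 409.8 in binding and 204.6 in non-binding cells, the same direction at a smaller fold. Slc25a1, the mitochondrial citrate carrier that exports citrate for lipid synthesis, read 1183 in laminin-binding and 228 in non-binding cells, 2167, 2136, 2247 and 826 on STO days 1, 5, 10 and 20, 1603 on MSC1, 701 in interstitial and 655 in tubular somatic cells. It was 5.19-fold brighter in binding cells, so the citrate carrier of the mitochondrion and that of the plasma membrane lay on opposite sides of the sort. Slc25a22, which carries glutamate into mitochondria, read 321 in binding and 5.60 in non-binding cells (at least 6.42-fold brighter), and Slc25a29 read 405 and 113 (3.60-fold). Of the 25 mitochondrial carriers 3 were called higher in binding cells and none lower, where the background had 7.71% and 8.8%. Their median log2 fold was 0.63, against 0.43 over the 113 genes and 0.15 over the background.

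Slc6a6 read 348 in binding and 74.4 in non-binding cells, 4.68-fold brighter. Slc27a4 read 2458 and 609.8, 4.03-fold brighter. Of the 19 amino acid carriers, Slc6a6 alone was called. Slc22a3, which carries monoamines, read 266 and 69, 3.86-fold brighter. Slc10a7 read 271 and 29.4, at least 5.43-fold brighter. These 4 genes carry unlike substrates. Of the 13 called genes, 5 have another probe set. Those of Slc30a4, Slc30a2 and Slc33a1 went the same way by at least 2-fold, that of Slc16a6 by 1.35-fold, and that of Slc6a6 by 1.05-fold, within array error, at 52.7 in binding and 48.9 in non-binding cells. The calls of Slc10a7 and Slc22a3 ended with a floor of 100, those of Slc6a6 and Slc16a6 with the mean over probe sets (log2 fold 1.15 and -1.53), and those of Slc30a2 and Slc33a1 with the brightest probe set of either array type (log2 fold 1.00 and -1.16). The summed germ cell marker list was 15253 in binding and 32121 in non-binding cells, and its part in these differences was not tested.

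**Figure D2:**
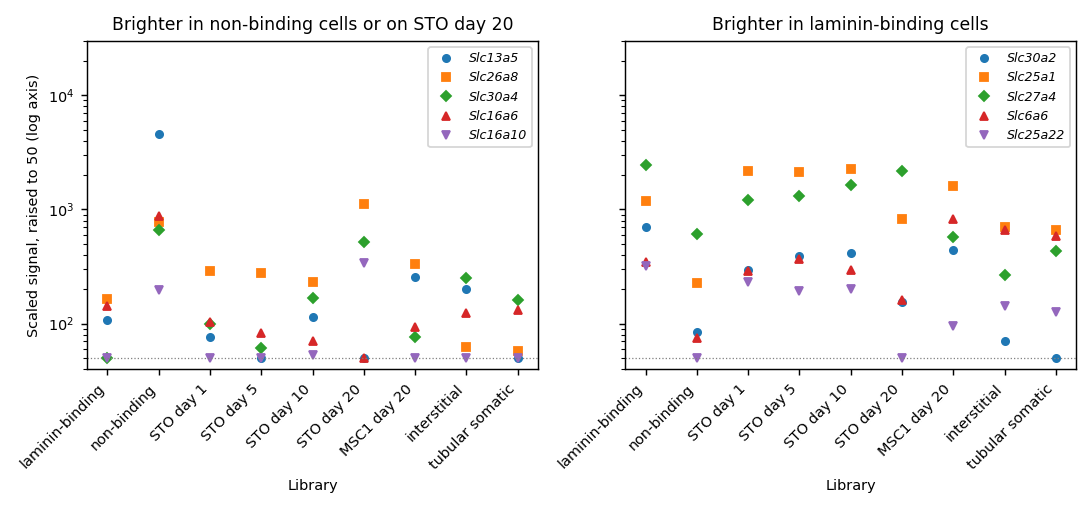
Scaled signal (log axis, raised to 50, dotted line) of 5 solute carrier genes brighter in non-binding cells or on STO day 20 (left) and 5 brighter in laminin-binding cells (right) in each of the 9 libraries, 1 point per library. Slc13a5 stands at 4562 in non-binding cells alone, Slc26a8 and Slc30a4 are high in both non-binding cells and STO day 20, and Slc16a10 is at 250 or more on STO day 20 alone.

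Over 20 days on STO feeders, most calls among the solute carriers came between days 10 and 20. By day 20, Slc16a10, Slc30a4, Slc26a8, the mitochondrial carrier Slc25a14 and the lipocalin receptor Slc22a17 were higher than on day 1, and the serotonin transporter Slc6a4, Slc44a1, Slc22a3 and the lysosomal nucleoside transporter Slc29a3 were lower. This makes 5 of the 113 genes higher (4.42%; background 3.44%) and 4 lower (3.54%; background 6.03%). Between days 1 and 5, none was higher and 1 lower, between days 5 and 10 none was called, and between days 10 and 20, 5 were higher and 2 lower. The background moved in the same steps, with 0.58%, 0.703% and 4.65% of its genes called. The median size of the log2 change per step was 0.29, 0.32 and 0.53 for the 113 genes and 0.33, 0.33 and 0.49 for the background.

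Slc16a10 (chr20:45014229-45122392), which carries tryptophan, tyrosine and phenylalanine, read 33.5 in laminin-binding and 195 in non-binding cells, 31.5, 21.8, 53.5 and 342 on STO days 1, 5, 10 and 20, 3.40 on MSC1, 11 in interstitial and 12.2 in tubular somatic cells. It was at least 6.85-fold higher on day 20 than on day 1, and STO day 20 was its only library at 250. The values of Slc30a4 and Slc26a8 on the 4 days stand above: Slc30a4 was 5.22-fold and Slc26a8 3.87-fold higher on day 20. These are 2 of the 5 genes lower in binding cells and 2 of the 5 higher on day 20, from libraries that the comparisons do not share; in the background, 124 genes were both, 17.4% of those lower in binding cells and 44.4% of those higher on day 20. Slc25a14 read 119, 131, 109.5 and 373 on the 4 days, 3.14-fold higher at the end. Slc22a17 read 473, 806, 1144 and 1432, 3.03-fold higher. Slc22a17 was higher at each later day, whereas the other 4 were called higher already against day 10.

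Slc6a4 went down at each step, from 598 through 301 and 235 to 125, 4.79-fold lower on day 20. Slc22a3 read 515, 273, 189 and 136, 3.78-fold lower. Both take up monoamines, and Slc22a3 was also 3.86-fold brighter in binding than in non-binding cells. Slc44a1 read 257, 205, 162 and 66.4, 3.87-fold lower, but its other probe sets did not fall, at 135.6 and 49 on day 1 and 118.4 and 50.6 on day 20. Slc29a3 read 281, 306, 272 and 77.1, 3.64-fold lower. Slc44a1 and Slc29a3 dropped out with a floor of 100 or with the mean over probe sets, and then 2 genes were lower; the log2 fold of Slc44a1 was -0.71 over the mean of its probe sets.

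The 4 STO days allow the only fitted test, a straight line of log2 signal on log2 day in limma with 2 residual degrees of freedom, which measures departure from the line and not the spread between cultures. With Benjamini-Hochberg adjustment over 16066 probe sets, none (0%) had an adjusted p under 0.05, and 1500 (9.34%) had an unadjusted p under 0.05. Of the 104 solute carriers bright enough to test none was called either; 7 (6.73%) had an unadjusted p under 0.05, 2 with a positive and 5 with a negative slope. The smallest adjusted p in limma among them was 0.404, for Slc6a4, with a slope of -0.49 per doubling of the day (SE 0.116). On the day itself rather than its log2, 1425 probe sets (8.87%) and 11 solute carriers (10.6%) had an adjusted p under 0.05 in limma, the lowest adjusted p among the carriers being 0.0134. Of those 11, Slc16a10, Slc22a17, Slc26a8 and Slc30a4 had positive slopes, and Slc22a3, Slc25a12, Slc25a22, Slc29a3, Slc39a4, Slc44a1 and Slc6a4 negative ones, so the call rests on the time scale. Slc39a4, the zinc importer of the gut, read 755, 709.5, 665 and 282, and the aspartate and glutamate carrier Slc25a12 read 203, 141, 70.1 and 37.8. Of 7 germ cell markers 2 were called higher on day 20 and none lower, where the background had 3.44% and 6.03%. The meiotic gene Sycp3 read 721.7, 609, 547.8 and 2433.7 on the 4 days, and the germ cell surface gene Tex101 read 730.5, 692.7, 1091 and 2696.6. Piwil2, Tex15, Tdrd1 and Tex14 went the other way without a call, Piwil2 from 1747.4 on day 1 to 594.7 on day 20. The list summed to 32102 on day 1 and 25905 on day 20. Of 10 Leydig genes 2 were called higher, Star at 62.5 on day 1 and 404.1 on day 20 and Hsd11b1 at 8.3 and 257.9. The fibroblast and matrix list summed to 4485, 2003, 3166 and 7158 on the 4 days and the macrophage list to 1101, 1090, 1032 and 2059. Of 12 fibroblast and matrix genes 4 were called higher on day 20 and none lower, and of 14 macrophage genes 3 and none. Col5a2, which made up 2212.3 of the fibroblast sum on day 1, read 1475.3 on day 20, while Lox went from 43 to 729 and Col1a2 from 103 to 760.8. The part of these markers in the day 20 values was not tested.

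**Figure D3:**
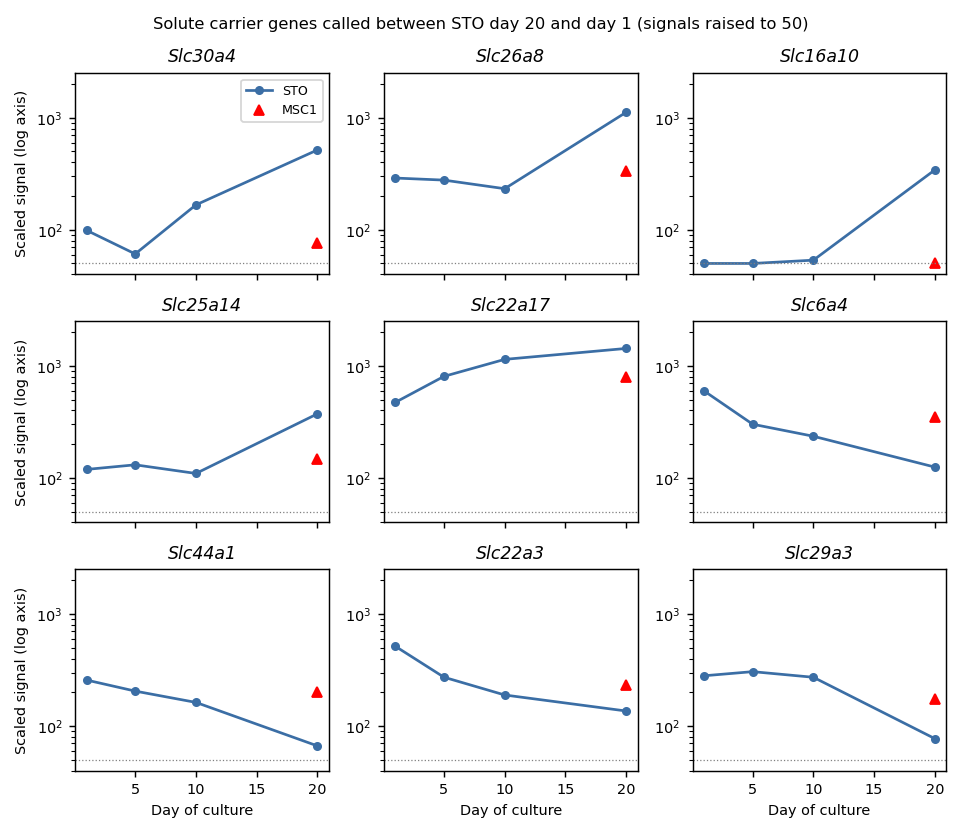
Scaled signal (log axis, raised to 50) against day of culture for the 9 solute carrier genes called between STO day 20 and day 1; circles joined by a line are the 4 STO libraries and the red triangle is the MSC1 library of day 20. Slc30a4, Slc26a8 and Slc16a10 climb at day 20 to 516, 1119.6 and 342 on STO, and their MSC1 triangles lie near the earlier STO days.

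On day 20, germ cells on MSC1 and on STO differed in 9 solute carriers. Slc16a10, Slc30a4 and Slc26a8 were lower on MSC1 than on STO, as were Slc27a4, Slc7a6 and the peroxisomal carrier Slc25a17, while Slc13a5, Slc6a6 and the sugar transporter Slc50a1 were higher. The counts were 6 genes lower (5.31%; background 4.38%) and 3 higher (2.65%; background 5.75%). Of the 5 genes higher on STO day 20 than on day 1, 3 were among the 6 lower on MSC1; both comparisons use the same STO day 20 library, so this library alone can place a gene in both.

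Slc16a10 read 3.40 on MSC1 and 342 on STO, at least 6.85-fold lower. Slc30a4 read 75.7 and 516, 6.82-fold lower, while its type B probe set read 161.4 and 218.3. Slc26a8 read 334 and 1119.6, 3.35-fold lower. On STO day 1 the same genes read 31.5, 98.8 and 289.6. Slc27a4, which activates and imports long-chain fatty acids, read 2458 in laminin-binding and 609.8 in non-binding cells, 1220.5, 1314, 1646 and 2169.7 on STO days 1, 5, 10 and 20, 571 on MSC1, 269 in interstitial and 433 in tubular somatic cells; it was 3.80-fold lower on MSC1. Its MSC1 signal was near that of the non-binding cells, and all other germ cell libraries were above both. Slc25a17, which carries coenzyme A and other cofactors into peroxisomes, read 369 and 1288, 3.49-fold lower, and Slc7a6 read 88.8 and 318, 3.58-fold lower.

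Slc6a6, which takes up taurine, read 348 in laminin-binding and 74.4 in non-binding cells, 291, 371, 298 and 162 on STO days 1, 5, 10 and 20, 819 on MSC1, 658 in interstitial and 587 in tubular somatic cells. It was 5.07-fold higher on MSC1 than on STO, and the MSC1 library was its brightest. Slc13a5 read 256 and 27.4, at least 5.11-fold higher, and Slc50a1 read 441 and 144, 3.06-fold higher. Under both other scalings, to the 75th percentile and by quantiles, Slc13a5 and Slc50a1 were no longer called and 1 gene was higher, with log2 folds little changed: 2.23 and 2.21 for Slc13a5, from 2.35, and 1.51 and 1.47 for Slc50a1, from 1.61. Slc13a5 was also lost with a floor of 100 (1.35). The share of higher calls among called genes of the background was 56.8% as deposited and 43% after scaling to the 75th percentile, and among the solute carriers it was 33.3% as deposited, 12.5% after that scaling and 11.1% after quantile normalization. Of 7 germ cell markers Tex101 alone was called, lower at 786.7 on MSC1 and 2696.6 on STO day 20, and Sycp3 read 925.9 and 2433.7. Piwil2, Tex15, Tex14 and Tdrd1 went the other way without a call, Piwil2 at 1511 on MSC1 and 594.7 on STO. The list summed to 30804 on MSC1 and 25905 on STO day 20. Among the Leydig genes 2 were called lower, Star at 114.2 and 404.1 and Hsd11b1 at 26.6 and 257.9. The Sertoli list summed to 2981 on MSC1 and 2197 on STO day 20, and 1 of its 14 genes, Cldn11, was called higher, at 615.5 and 55.6. The peritubular myoid list summed to 1208 on MSC1 and 575 on STO day 20 and the macrophage list to 3050 and 2059. The Gapdh 3′ to 5′ ratio on type A was 27.4 and 14.7. What part these have in the differences was not tested.

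Between tubular and interstitial somatic cells 12 solute carriers were called. Tubular somatic cells were brighter for the myo-inositol transporter Slc5a3, the mitochondrial carriers Slc25a25 and Slc25a13, the potassium-chloride cotransporter Slc12a4, Slc45a4, the choline transporter-like Slc44a2 and the magnesium carrier Slc41a3. Interstitial cells were brighter for Slc6a4, Slc22a18, Slc50a1, the Golgi zinc transporter Slc30a7 and Slc2a9. This gave 7 genes higher in tubular cells (6.19%; background 5.32%) and 5 lower (4.42%; background 6.55%).

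Slc41a3 (chr4:124666789-124711968) read 688 in laminin-binding and 387 in non-binding cells, 492, 360.3, 344 and 333 on STO days 1, 5, 10 and 20, 313 on MSC1, 746 in interstitial and 2651 in tubular somatic cells. It was 3.55-fold brighter in tubular cells. Slc45a4 read 1081 in tubular and 258 in interstitial cells (4.18-fold), with germ cells at 119 to 222. Slc44a2 read 470 and 120.1 (3.91-fold), with germ cells at 53 to 96.3. For all 3 the tubular library was at least 3-fold above each of the other 8. Slc12a4, which lets potassium and chloride leave swollen cells, read 356 and 76.8, 4.64-fold brighter. Slc25a25 read 286 and 38.8, at least 5.72-fold brighter, and Slc25a13, the aspartate and glutamate carrier citrin, read 317 and 67.9, 4.67-fold brighter. Slc5a3 read 762 and 132, 5.76-fold brighter, but another probe set of the gene read 17.1 and 71.6, the opposite direction. The main probe set was brightest on STO day 20, at 2535.

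On the interstitial side, Slc6a4, which clears serotonin, read 186 in laminin-binding and 58.9 in non-binding cells, 598, 301, 235 and 125 on STO days 1, 5, 10 and 20, 352 on MSC1, 746 in interstitial and 151 in tubular somatic cells. It was 4.94-fold dimmer in tubular cells. Its brightest library was the interstitial one, followed by STO day 1, and its dimmest the non-binding cells. Slc2a9 read 157 in tubular and 490.4 in interstitial cells (3.12-fold dimmer) and was over 250 in no other library. Slc22a18 read 67.3 and 269, 3.999-fold dimmer. Slc50a1 read 114 and 450.1, 3.96-fold dimmer, and Slc30a7 read 141 and 441, 3.14-fold dimmer. Slc50a1 was bright in interstitial cells and on MSC1 and dim in the sorted germ cells. Calls between the somatic populations ended for Slc22a18 and Slc25a25 with a floor of 100, for Slc30a7 under both other scalings at a log2 fold little changed (-1.55 and -1.50, from -1.65), for Slc5a3 with the mean over probe sets and for Slc25a13 with the brightest probe set of either array type. The macrophage list summed to 6848 in interstitial and 1415 in tubular cells, the myoid list to 2419 and 6236, and the fibroblast list to 29473 and 11191; their part in these differences was not tested.

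**Figure D4:**
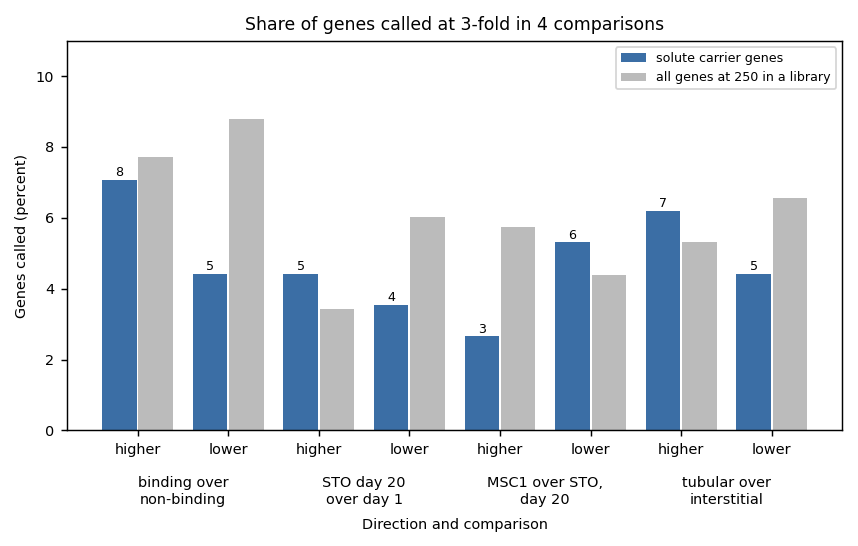
Percent of genes called at 3-fold in each direction of the 4 comparisons between single libraries, for the 113 solute carrier genes (blue, number called above the bar) and for the 8106 genes at 250 in a library (grey). The blue bars lie between 2.65% and 7.08% and the grey bars between 3.44% and 8.8%.

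Over the 4 comparisons, 32 of the 113 genes (28.3%) were called at least once, against 34.5% of the background. The solute carriers were called no more often than other genes of this brightness, and the plot of shares shows grey bars above blue ones in most directions.

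Slc30 proteins move zinc out of the cytoplasm, into vesicles or out of the cell, and Slc39 proteins bring it in. Of 7 Slc30 genes, 2 were above both somatic libraries in all germ cell libraries and none below; of 8 Slc39 genes, 1 was above and 3 below. The background had 19.9% above and 15% below. Within Slc30, the genes for vesicular transporters took opposite sides of the laminin sort: Slc30a2 was 704 in binding and 84.6 in non-binding cells, and Slc30a4 38.2 and 661. On STO day 20 they stood at 155 and 516, and on MSC1 at 442 and 75.7. On these probe sets each gene was thus high where the other was low in the 4 libraries. The type B probe sets did not show this throughout. That of Slc30a2 read 409.8, 204.6, 576.9 and 498 in binding, non-binding, STO day 20 and MSC1 cells. That of Slc30a4 read 5.6, 100, 218.3 and 161.4 in the same libraries. On type B both genes were thus brightest on STO day 20 and dimmer on MSC1, and opposite only across the laminin sort. Slc30a3 went from 1476 on STO day 1 through 1243 and 998 to 619 on day 20, and read 2508 in binding and 1753 in non-binding cells; neither difference reached 3-fold. Slc30a9 was among the steadier genes, between 413 and 1111.

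Among the importers, Slc39a4 was the one brighter in germ cells, at 262 to 755 against 202 in interstitial and 105 in tubular somatic cells. Slc39a14, which also imports manganese and iron, read 159 to 274 in germ cells against 1034 and 364. Slc39a1 read 282 to 804 against 969.7 and 1557, and Slc39a10 read 82.9 to 198 against 528 and 329. The gaps of Slc39a4, Slc39a14 and Slc39a1 were within array error. Another probe set of Slc39a14 overlapped, at 61.2 to 304.4 in germ cells against 225.4 and 206.4. Slc39a6 read 2962 in laminin-binding and 1283 in non-binding cells, 1912, 1160.5, 1076 and 982 on STO days 1, 5, 10 and 20, 1017 on MSC1, 2849.9 in interstitial and 6266 in tubular somatic cells. Its tubular library was the brightest, the laminin-binding and interstitial libraries lay within array error of each other, and it was not called in any of the 4 comparisons. Its other probe sets gave other orders. They read 203.6 and 130.3 in laminin-binding, 14.1 and 75.1 in interstitial, 122 and 257.9 in tubular somatic and 197.2 and 234.9 in MSC1 cells. Slc39a7, which releases zinc from the endoplasmic reticulum, was brighter in both laminin-sorted libraries (751 and 662) than in the 5 feeder-grown ones (236 to 341). Other metals showed no common direction. Slc11a2, the iron and manganese transporter DMT1, read 411 in laminin-binding and 252 in non-binding cells, 417, 329, 436 and 964 on STO days 1, 5, 10 and 20, 602 on MSC1, 941 in interstitial and 1238 in tubular somatic cells, and the copper importer Slc31a1 was 299.7 in binding, 691 in non-binding, 861 in STO day 20 and 288 in MSC1 cells. Over all 21 metal carriers, 3 lay above and 5 below both somatic libraries, where the background had 19.9% and 15%. Of these, Slc30a2, Slc39a4, Slc39a1, Slc39a14 and Slc41a3 lay within array error of overlapping.

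**Figure D5:**
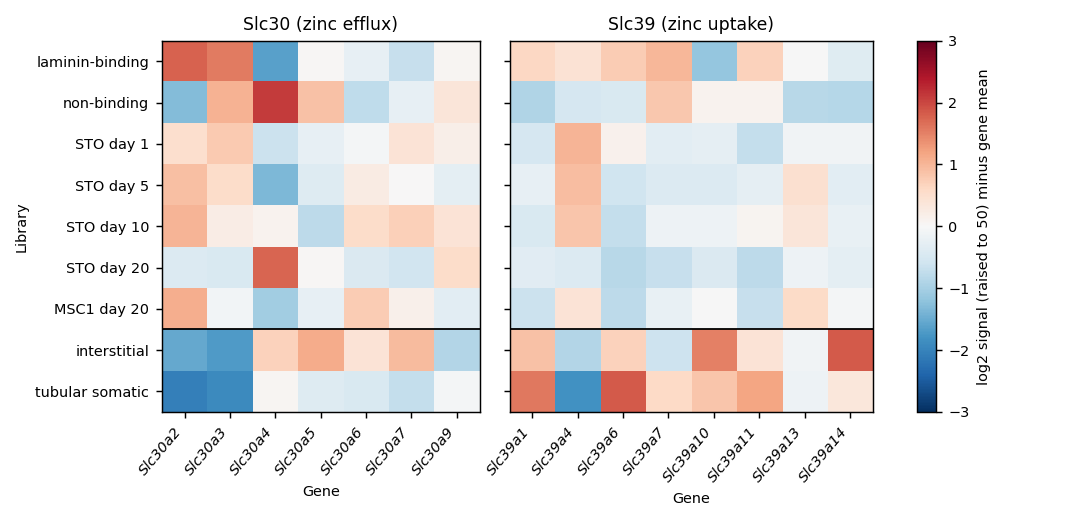
Log2 signal (raised to 50) of the 7 Slc30 (left) and 8 Slc39 (right) zinc transporter genes in the 9 libraries (rows), minus each gene's mean over the libraries; red is above and blue below the mean. On the main probe sets drawn here, Slc30a2 and Slc30a4 have opposite colours in laminin-binding, non-binding, STO day 20 and MSC1 cells. Their type B probe sets, not drawn, are both brighter on STO day 20 than on MSC1.

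Germ cells grown on feeders and germ cells sorted on laminin are both cultured, and the feeder-grown libraries had the higher Gapdh 3′ to 5′ ratios on array type A. The fibroblast and matrix list summed to 2003 to 7502 on feeders and to 1363 to 1774 in the sorted libraries. What part cell mixture and RNA quality have in this contrast was not tested. The 5 feeder-grown signals lay above both sorted signals for 15 of the 113 genes (13.3%; background 11.1%) and below both for 12 (10.6%; background 9.43%). With a gap of 3-fold and 250 on the bright side, none was above and 1, Slc1a4, was below, where the background had 0.0617% and 0.148%. Slc1a4, an exchanger of serine, alanine and cysteine, read 274 in laminin-binding and 619 in non-binding cells, 74, 16.1, 83.4 and 23.9 on STO days 1, 5, 10 and 20, 58.1 on MSC1, 344 in interstitial and 201 in tubular somatic cells. The sorted and the somatic libraries lay above all feeder-grown ones, with 3.29-fold between the nearest germ cell libraries. Above both sorted libraries were Slc35a4, at 191 to 492 on feeders against 103 in binding and 97.7 in non-binding cells, the CMP-sialic acid transporter Slc35a1, at 379.5 to 716 against 278 and 280.2, and Slc5a3, at 1309.5 to 2535 against 584 and 798. The other probe set of Slc5a3 overlapped, at 11.8 to 88.2 on feeders against 108.7 and 44.5, and so did the brightest other one of Slc35a1, at 47.5 to 161.7 against 126.5 and 83. The creatine transporter Slc6a8 was likewise higher on feeders, at 302 to 463 against 182 and 153. Below both, besides Slc1a4 and Slc39a7, was the carnitine and acylcarnitine carrier Slc25a20, at 93.5 to 234 on feeders against 372 and 403.

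A single library stood at least 3-fold above each of the other 8 for 6 of the 113 genes (5.31%; background 7.29%). The library was the non-binding cells for Slc13a5 and for the main probe set of Slc16a6, not for its other one, the interstitial cells for Slc2a9 and the tubular somatic cells for Slc45a4, Slc44a2 and Slc41a3. No solute carrier of the 113 had this pattern in a feeder-grown library or in the laminin-binding cells. The background rarely had it there either. Its shares were 0.136% in laminin-binding cells, 0% on STO days 1, 5 and 10, 0.0617% on STO day 20 and 0.074% on MSC1. The folds to the next library were 17.8 for Slc13a5, 6.16 for Slc16a6, 4.18 for Slc45a4, 3.91 for Slc44a2, 3.55 for Slc41a3 and 3.12 for Slc2a9.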

How the data were processed

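Total RNA, 50 ng per array, was amplified in 2 rounds and hybridised to arrays of 2 types, per the labels. The deposited values are linear signal intensities, 1 per probe set, which the authors scaled to a mean of 250 on each array (scale factors 0.391 to 1.51 for type A, 1.05 to 4.01 for type B, per the labels); which software summarised the probes, and how background was corrected, is not given in the sources used here. A detection parameter Tau of 0.015 is stated, and no calls were used. Amplification in 2 rounds favours 3′ ends.

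Type A holds 15923 probe sets and type B 15333, of which 15866 and 15176 were counted after control probe sets were left out. Genes were named from the platform annotation and placed on GRCr8 through RefSeq; all 113 were found. Each gene is represented by 1 probe set, the one with the highest mean log2 signal after raising values to 50, taken from type A where possible. Probe sets of different genes were not set against each other. The genes were grouped by substrate from their families. Members, marker lists and partner lists were chosen with earlier results of these data known.

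Named genes are, in each comparison, up to 12 called genes with the largest fold in each direction, genes of the trend test past 0.05, genes with a single bright library and the 3 nearest the threshold on each side; other genes named in the text were chosen after their values were seen. The trend used limma 3.58.1 in R 4.3.3 (lmFit, eBayes with a variance trend) on probe sets with a mean of at least 100 over the 4 STO arrays, and was tested on simulated data. Alternatives were floors of 25 and 100, scaling to a common 75th percentile, quantile normalization, the mean over probe sets, the brightest probe set of either type and a fold of 2. Alternatives for genes with a single bright library, and germ cells taken from the sorted or the feeder-grown libraries alone or with a gap past array error, were chosen after seeing the data.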

Additional observations from a re-analysis of the deposited data

How the results depend on the processing

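Of the 43 calls in the 4 comparisons between single libraries, 28 were kept under each of 6 alternatives (floors of 25 and 100, scaling to the 75th percentile, quantile normalization, mean over probe sets, brightest probe set on either type), 15 were lost under at least 1 and 0 reversed. The genes lower on STO day 20 than on day 1 numbered 4, and 2 with a floor of 100 or with the mean over probe sets. Those higher on MSC1 than on STO numbered 3, and 1 under either other scaling, where the log2 folds of the 2 lost genes stayed at 1.47 to 2.23 (1.61 and 2.35 as deposited). With a fold of 2, the binding comparison gave 23 genes higher and 12 lower (background 16.7% and 16.1%), STO day 20 over day 1 gave 9 and 10 (9.33% and 12.4%), MSC1 over STO gave 9 and 10 (13.4% and 11.5%), and tubular over interstitial gave 13 and 19 (11.3% and 13.2%). Scaling to the 75th percentile moved the median log2 fold of the background in the binding comparison from 0.15 to 0.03 and in the MSC1 comparison from 0.10 to -0.003. Genes above and below both somatic libraries numbered 16 and 21, 23 and 38 with only the laminin-sorted libraries as germ cells (background 29.6% and 24%), and 8 and 13 with a gap past array error (10.2% and 8.71%). The STO trend called 0 solute carriers on log2 day and 11 on day. The cause of these shifts was not tested. No paired analysis was possible because each population has 1 library per array type and the labels number no replicates. Values under 50 carry no order.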

Other observations

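Genes that work beside the solute carriers were read the same way, from lists by role. Emb, or embigin, a chaperone that brings monocarboxylate transporters to the cell surface, was 452.4 in laminin-binding and 108.3 in non-binding cells (4.18-fold higher), 393 on STO day 1 and 99.1 on STO day 20 (3.97-fold lower), and 374.9 on MSC1 (3.78-fold higher than on STO). Bsg, the other main chaperone, was called in none of these comparisons and read 633.9, 889.3, 1032.7 and 1378.1 on the 4 STO days and 809.3 on MSC1. Of 12 sodium pump subunits, whose gradient drives many carriers, 2 reached 250, and Atp1b1 read 5708.7 in tubular and 729.8 in interstitial cells, 7.82-fold higher. Of 10 metal handling genes 5 reached 250, and the transferrin receptor Tfrc read 674.3 in binding and 3185.1 in non-binding cells, 4.72-fold lower.

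Of 12 genes of amino acid sensing and the response to amino acid deprivation, serine synthesis included, 11 reached 250. On STO day 20 against day 1 none of the 12 was higher and 3 were lower, where the background had 3.44% and 6.03%. These were Phgdh, the first enzyme of serine synthesis, at 130.8 against 1010.6 (7.73-fold lower), Psat1, the next enzyme, at 306.7 against 1675.1 (5.46-fold lower), and Rragd, a lysosomal GTPase, at 43.3 against 393.1 (at least 7.86-fold lower). The deprivation response genes Atf4, Asns, Trib3, Chac1, Ddit3, Ddit4 and Sesn2 were not called between these days. Of the same list 1 gene was higher and 1 lower in binding over non-binding cells (background 7.71% and 8.8%), 3 were higher and none lower on MSC1 over STO (5.75% and 4.38%), which shares the STO day 20 library, and none was called between the somatic populations (5.32% and 6.55%). Of 38 ATP-driven ABC transporters, 24 reached 250 and their counts were 3 higher and 3 lower in binding over non-binding cells (background 7.71% and 8.8%), 1 and 3 on STO day 20 over day 1 (3.44% and 6.03%), 3 and 2 on MSC1 over STO (5.75% and 4.38%), and 2 and 6 in tubular over interstitial cells (5.32% and 6.55%). The cholesterol exporter Abca1 read 3418.1 on STO day 1, 318.1 on STO day 20 and 1543.6 on MSC1. The drug efflux pump Abcg2 read 1817.1 in binding and 591.5 in non-binding cells, 3.07-fold higher. Of 13 Slco organic anion transporters, 1 reached 250: Slco6b1, a testis transporter, read 29.3 in binding and 259.2 in non-binding cells, at least 5.18-fold lower.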
